A study of Mus musculus with 23 samples.

Results

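Untreated MC38 tumors were compared between mouse hosts of lines that respond to PD-1 blockade and hosts of lines that do not. MC38 cells are a colon carcinoma line from a C57BL/6 mouse, and PD-1 is the inhibitory receptor on T cells that the blocking antibody targets. The tumors are those given an isotype control antibody, 12 of the 23 tumors profiled by bulk RNA sequencing, chosen by host line and antibody and not by any measured value. All 12 grew from 500000 cells under the skin of female mice aged 8 to 12 weeks, had reached 75 to 110 mm3 when the host received 200 µg of isotype control antibody (clone 2A3) into the peritoneum, and were taken 48 h after that single dose. The 11 tumors given anti-PD-1 were not part of this comparison.

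Hosts were F1 mice of C57BL/6J and a Collaborative Cross (CC) line, a recombinant inbred line bred from founder strains of diverse origin, so every host carried a full C57BL/6J genome beside 1 CC genome. Responder (R) hosts were C57BL/6J x CC001/UncJ, C57BL/6J x CC002/UncJ and C57BL/6J x CC075/UncJ, and non-responder (NR) hosts were C57BL/6J x CC036/UncJ, C57BL/6J x CC079/TauUncJ and C57BL/6J x CC080/TauUncJ. Each line gave 2 tumors, numbered as in the labels, so 6 R tumors stood against 6 NR tumors. The labels do not give the class, which was taken for each line from the text of the study. It describes tumor growth under anti-PD-1 in that line, and none of these 12 mice had received that antibody. Line was nested in class, with 3 lines a side, and a difference between classes cannot be told apart from a difference between those particular lines. Tumors of a line were treated as independent in the main test, and the tumor cells came from 1 cell line in every host.

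A subcutaneous tumor is a mixture of carcinoma cells with host T cells, natural killer cells, macrophages, dendritic cells, fibroblasts and vessels. T cells that recognise antigen release interferon-gamma, which drives chemokines such as Cxcl9, guanylate-binding proteins and MHC class II in neighbouring cells, and Cxcl9 in turn attracts T cells. Type I interferons, made upon sensing of nucleic acids, drive an overlapping antiviral program with Isg15 and the Ifit family at its core. The comparison asks how the tumors differed between the classes before PD-1 blockade, which acts on T cells.

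Counts fell into 4 shallow libraries with 15276128 to 18354585 counts (1 R, 3 NR) and 8 deep libraries with 37242363 to 65776443 counts (5 R, 3 NR), so depth and class were partly mixed. The 3 deep NR libraries were CC036 tumor 2, CC079 tumor 1 and CC080 tumor 1. Skeletal muscle genes were high in CC001 tumor 1 and CC080 tumor 2, lymph node genes in CC002 tumor 1, and the list of epithelial and MC38 genes took 0.00221 to 0.00474% of counts in R and 0.00266 to 0.00404% in NR tumors, with Epcam, an epithelial marker, at 3.58 to 45.6 normalized counts. Shisal2b, the gene by which the study marked MC38 cells, counted 414 to 1022 in R and 507 to 1027 in NR (log2 difference 0.10 ± 0.25, DESeq2 adjusted p = 0.879). Over 32 library properties (depth, genes with a count, and the share of counts in cell type lists) none passed after Benjamini-Hochberg adjustment (two-sided exact permutation tests, lowest adjusted p = 0.254, smallest p the design allows 0.00216). With 32 properties adjusted together, a single property could not pass even at that smallest p. These tests therefore do not show that the classes were equal in depth or composition. The lowest unadjusted p belonged to the share of the T cell list, 0.0104% ± 0.00210 in R against 0.00547% ± 0.00263 in NR (SD, n = 6 each, exact p = 0.0108), followed by the fibroblast list, 0.313% ± 0.139 against 0.491% ± 0.0602, and the regulatory T cell list, 0.00446% ± 0.000310 against 0.00376% ± 0.000530 (exact p = 0.0238 for each). In bulk RNA, fewer cells of a type and less RNA per cell cannot be told apart.

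Many small differences separated the classes, and more genes were lower than higher in R tumors. In DESeq2, with class as the only term, 829 of 14995 genes with an adjusted p passed an adjusted p of 0.05, which is 5.53% of them. Of these, 343 (2.29%) were higher and 486 (3.24%) were lower in R tumors, 771 encoded proteins, and the share called ran from 4.38 to 8.02% over the chromosomes. The median log2 difference of the called genes was 0.43 for higher and -0.47 for lower genes, and 58 genes were higher and 66 lower by at least 1 on the log2 scale. Leaving out 1 tumor gave 402 calls without CC002 tumor 1, 426 to 528 without CC001 tumor 1, CC036 tumor 1, CC075 tumor 1 or either tumor of CC079, 1283 without CC080 tumor 1 and 1838 without CC075 tumor 2, and 297 of the 829 genes passed in all 12 of these fits. The quasi-likelihood test of edgeR, with p adjusted over all 24538 genes, called 30 of them (0.122%), all of them also called by DESeq2. At an unadjusted p under 0.05 edgeR had 3681 genes and DESeq2 3285, and the cause of the fewer calls was not tested. With host line as a random effect limma called 3. Calls among list members below stand beside the 5.53% of all genes, and members without an adjusted p could not be called by DESeq2.

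**Figure D1:**
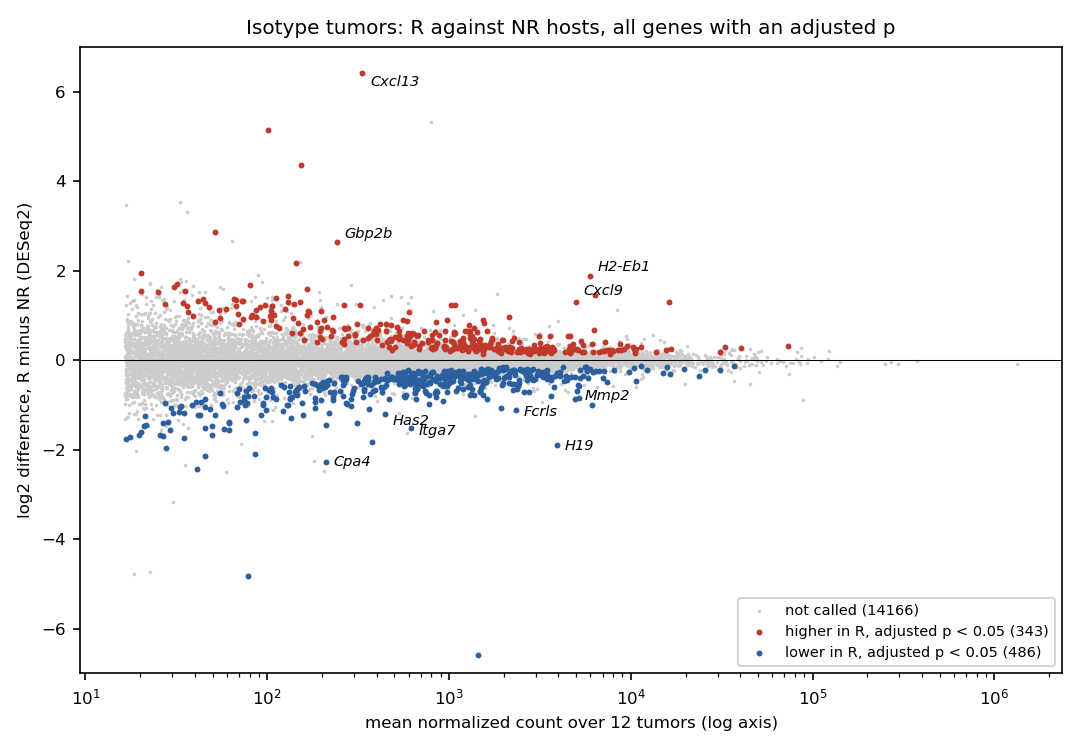
Each point is a gene with an adjusted p, with the mean normalized count over 12 tumors on a log x axis and the log2 difference R minus NR on the y axis. The 343 called genes above 0 are red and the 486 below it blue, Cxcl13 lies highest among the labelled genes and Cpa4 lowest, and 3 genes beyond 7 on the log2 scale are not drawn.

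How far lines of a class resembled each other was read from the mean of each line on the log2(normalized count + 1) scale. All 3 R line means lay above all 3 NR line means for 2126 of 24538 tested genes (8.66%) and below them for 1930 (7.87%). Among genes with a mean of at least 100 normalized counts separation was more common. There the line means were separated in either direction for 2573 of 11843 genes, and for 675 of the 727 called genes. Tumor by tumor separation was rarer, with all 6 R tumors above all 6 NR tumors for 70 of 11843 genes at that level (0.591%) and below them for 105 (0.887%). Most tumors sat on the side of their own class, that is beyond the midpoint of the class means, for 84.3 to 99.0% of the called genes. The exceptions were CC080 tumor 1, which was on the NR side for 46.9% of the genes higher in R and 68.5% of those lower in R, CC075 tumor 2, which was on the R side for 66.2% and 39.3%, and CC080 tumor 2 with 77.0% of the genes higher in R. Calls were made with these tumors in the fit, so the shares describe the calls and do not test them.

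**Figure D2:**
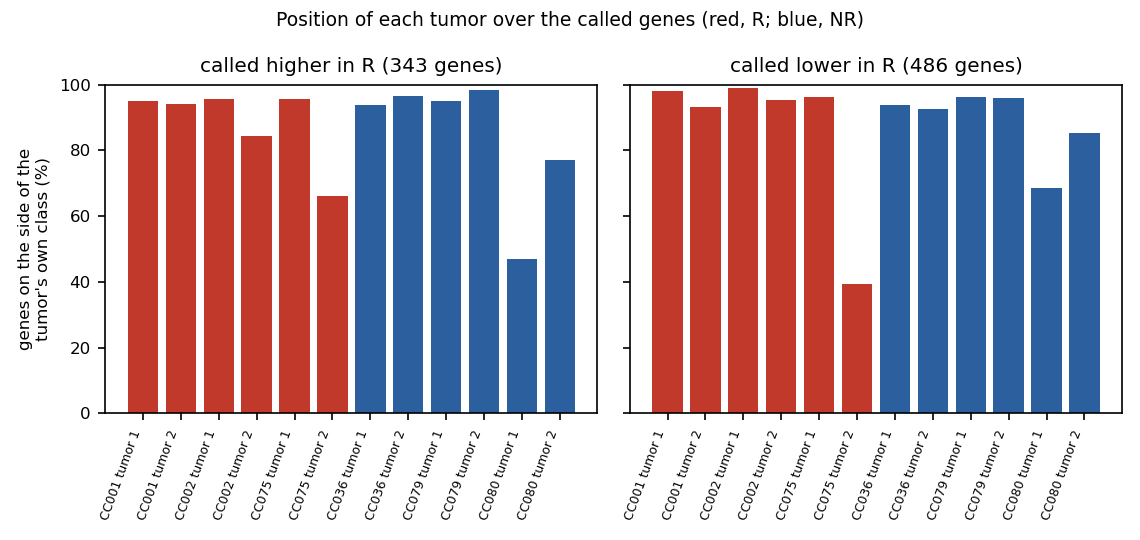
Bars give, for each of the 12 tumors, the percentage of called genes for which the tumor lay on the side of its own class, separately for the 343 genes higher and the 486 genes lower in R. CC075 tumor 2 and CC080 tumor 1 stand apart, with 39.3% for genes lower in R and 46.9% for genes higher in R.

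Some T cell genes were higher in R tumors. Of the 21 T cell genes tested, 6 passed and all 6 were higher in R, all 21 had a positive log2 difference, and their median was 1.07, against a median of 0.0043 over all tested genes. Among the 6 were Trac and Trbc1, the constant regions of the T cell receptor chains, Cd247, its zeta signaling chain, Lck, a kinase that acts downstream of it, and Cd6, a surface co-receptor. Line means were separated for 19 of the 21, all with R above NR. Over all tested genes that share was 8.66%, and 2573 of 11843 genes with a mean of at least 100 were separated in either direction. Normalized counts of Trac (chromosome 14, 54220521 to 54224206, GRCm38) ran from 111 through a median of 203 to 242 in R and from 28.9 through 79.2 to 167 in NR tumors. The classes overlapped because CC002 tumor 2, the lowest in R, was below CC080 tumor 1, the highest in NR. The log2 difference was 1.26 ± 0.32 (SE, DESeq2 adjusted p = 0.00658, edgeR 0.101).

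Cd247 counted 50.3, 91.6 and 159 (lowest, median, highest) in R against 12.5, 32.2 and 63.4 in NR, a log2 difference of 1.36 ± 0.38 (adjusted p = 0.0129 in DESeq2). CC080 tumor 1 and CC036 tumor 1 reached into the R range. The remaining genes of the receptor complex were as far apart on average but more variable. Cd8a, the co-receptor of cytotoxic T cells, counted 211, 476 and 585 in R against 35.4, 52.8 and 459 in NR, with a difference of 1.69 ± 0.64 that did not pass (DESeq2 adjusted p = 0.0955), and Cd3e gave 1.38 ± 0.69 (0.239). Cd4, which marks helper T cells, gave 0.12 ± 0.30 (0.872).

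A single tumor weighed on these counts. Without CC080 tumor 1, 15 of the 21 T cell genes passed and the median difference was 1.60. Without CC002 tumor 1, the R tumor with lymph node transcripts, 4 passed with a median of 1.02, the fewest, 3, passed without either CC079 tumor 1 or CC079 tumor 2, and without CC001 tumor 1, CC036 tumor 2 or CC075 tumor 1 it was 4. In the 8 deep libraries none passed in DESeq2, with 10 at an unadjusted p under 0.05 and a median of 0.88. The deep set has fewer tumors and keeps CC080 tumor 1 as 1 of its 3 NR tumors. Effects of depth, tumor number and that tumor cannot be told apart there, for this or any other list. Over all 12 tumors edgeR called none of the 21, with 18 at an unadjusted p under 0.05.

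Genes that T cells and natural killer cells use in attack and regulation were partly higher in R. Of 17 cytotoxic genes 3 were higher in R: Klrk1, the activating receptor NKG2D, with 309, 449 and 599.7 counts in R against 118, 159 and 369.6 in NR (log2 difference 1.24 ± 0.24, DESeq2 adjusted p = 0.000146), Nkg7, a granule protein (1.09 ± 0.33, 0.0251), and Fasl, the ligand of the death receptor Fas (1.37 ± 0.45, 0.0431). The ranges of Klrk1 overlapped through CC080 tumor 1 alone. Granzyme B and perforin, the killing proteins themselves, did not pass, with Gzmb at 0.47 ± 0.29 (0.363) and Prf1 at 0.01 ± 0.42 (0.993). The median over the 17 was 0.42 and it was -0.20 in the deep libraries.

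Calls of Nkg7 and Fasl were lost without any one of 7 and 10 tumors, with differences of 0.95 to 1.59 and 1.15 to 1.92 over the 12 fits. Nkg7 was called without CC001 tumor 2, CC002 tumor 1, CC002 tumor 2, CC075 tumor 2 or CC080 tumor 1, and Fasl without CC075 tumor 2 or CC080 tumor 1. Klrk1 passed in every such fit but not in the deep libraries (0.98, DESeq2 adjusted p = 0.162) or in edgeR (0.0634), and the list had 5 calls without CC075 tumor 2 or CC080 tumor 1 and 1 without any of the 7 tumors that cost both Nkg7 and Fasl their calls.

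Of 10 checkpoint genes 2 were higher in R, Lag3, an inhibitory receptor for MHC class II (0.98 ± 0.26, adjusted p = 0.0106 in DESeq2), and Entpd1, the ectoenzyme CD39 (0.57 ± 0.16, 0.0180). Pdcd1, which encodes PD-1, counted 75.4, 136 and 261 in R against 3.58, 32.4 and 200.0 in NR, and its difference of 1.34 ± 0.71 did not pass (0.271). Klrc1, the inhibitory receptor NKG2A, was the 1 of 11 natural killer genes that passed (1.30 ± 0.34, 0.00778), and Il2rg, the common gamma chain of several interleukin receptors, the 1 of 14 cytokine receptor genes (0.64 ± 0.14, 0.00146). No gene of 7 for regulatory T cells passed in DESeq2 or edgeR, with 1 at an unadjusted p under 0.05 in each, and Foxp3, their defining factor, gave 0.36 ± 0.27 (0.481), with 1 call in the list without CC075 tumor 2. Without CC080 tumor 1 the checkpoint, natural killer and cytokine receptor lists had 6, 3 and 6 calls, the receptor list had 3 without CC002 tumor 2 or CC075 tumor 1 and 4 without CC075 tumor 2, and Entpd1 was not called without CC001 tumor 2, CC002 tumor 1, CC079 tumor 1 or CC079 tumor 2.

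Itgb2 and Serpina3g were among the 8 genes that edgeR called higher in R. Itgb2, the shared beta chain of leukocyte integrins (chromosome 10, 77530252 to 77565708), counted 3229.9, 3497 and 4499.6 in R and 2123, 2517 and 3193 in NR tumors. All 6 R tumors were above all 6 NR tumors. This is a log2 difference of 0.54 ± 0.11 (DESeq2 adjusted p = 0.000251, edgeR 0.0429). Serpina3g, a protease inhibitor induced in activated T cells and macrophages, separated the tumors too, with 1089, 1481 and 1938 counts in R against 321, 582 and 953 in NR (1.23 ± 0.26, DESeq2 adjusted p = 0.000516, edgeR 0.0338). In the deep libraries neither passed in DESeq2 (Itgb2 0.39, adjusted p = 0.173, and Serpina3g 1.22, 0.150).

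**Figure D3:**
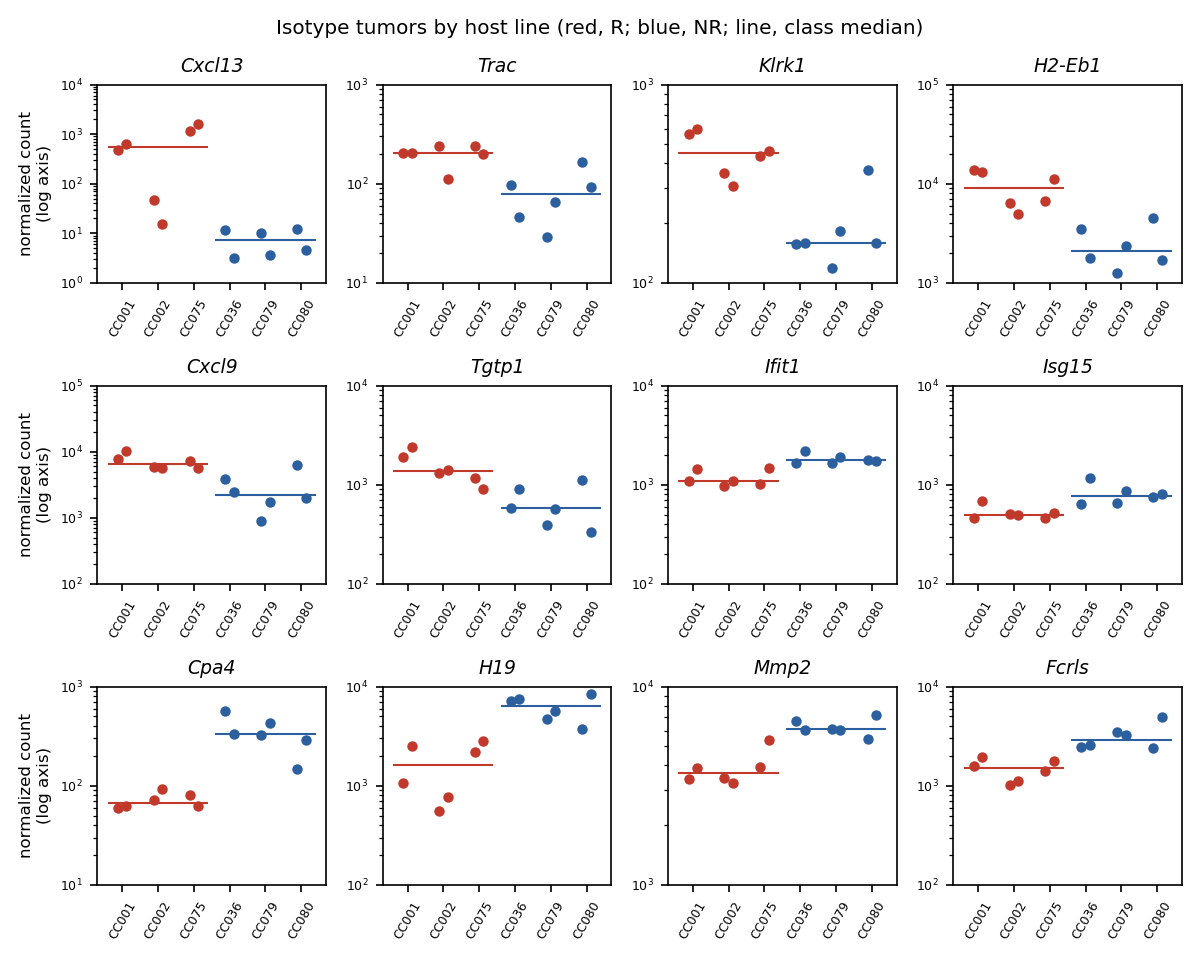
Normalized counts on a log axis in each of the 12 tumors for 12 genes of the text, placed by host line, with R tumors in red, NR tumors in blue and a line at each class median. H2-Eb1, Cpa4, Fcrls and Ifit1 keep the classes apart, while CC080 tumor 1 reaches into the R range for Trac and Cxcl9.

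Several MHC class II genes, which present antigen to helper T cells, were higher in R tumors. Of 10 class II genes 5 passed, all of them higher in R, all 10 had a positive difference, and the median was 1.20. H2-Eb1, a beta chain that binds peptide (chromosome 17, 34305867 to 34316674), counted 4935, 8957 and 13727 in R and 1250.5, 2077 and 4518 in NR tumors. Every R tumor was above every NR tumor. The log2 difference was 1.89 ± 0.38 (DESeq2 adjusted p = 0.000285, edgeR 0.0285). H2-Ab1, the beta chain of the other class II molecule, overlapped, with 5070.3, 8399.5 and 13881 against 1511, 2975 and 7587 (1.46 ± 0.41, DESeq2 0.0143), CC080 tumor 1 again being highest in NR.

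The other class II calls were H2-DMb1, which helps load peptide (0.64 ± 0.16, DESeq2 adjusted p = 0.00658), H2-Ob, its modulator (1.35 ± 0.44, 0.0413), and Cd74, the invariant chain (1.29 ± 0.42, 0.0416). Ciita, the master regulator of class II transcription, counted 376, 598 and 946 in R against 105, 159.8 and 670.4 in NR, and its difference of 1.33 ± 0.47 did not pass (0.0681). Of 17 class I genes none passed in DESeq2 or edgeR, with 2 and 3 at an unadjusted p under 0.05 and a median of 0.09, and 4 passed without CC036 tumor 2 and 1 without CC080 tumor 1. MHC genes resemble each other and vary by haplotype, and reads may be assigned to the wrong one, so these values are uncertain beyond the stated errors.

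The class II count rose to 8 without CC080 tumor 1 and was 1 without CC036 tumor 2, 2 without CC001 tumor 1, CC001 tumor 2, CC002 tumor 1, CC036 tumor 1 or CC079 tumor 1, and 3 without CC075 tumor 2, CC079 tumor 2 or CC080 tumor 2. The median stayed between 1.05 and 1.60 in these fits, and H2-Eb1 passed in all of them. In the deep libraries none of the 10 passed in DESeq2, with 3 at an unadjusted p under 0.05, a median of 0.93 and H2-Eb1 at 1.78 (adjusted p = 0.154).

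Class II is transcribed from promoters with an inverted CCAAT box, one of the conserved elements upstream of these genes. In RefSeq promoter windows (GRCm38.p6, 250 bases before to 50 after a start site), ATTGG on either strand was found for 7 of the 7 class II genes that had a window, out of 10, against 41.1% of all 27025 genes with one, or in 37.4% of all 32851 windows. The window of H2-Eb1 (chr17:34305617-34305916, plus strand) is shown because this gene had the largest called class II difference, with both matches in capitals, 59 and 35 bases before the start site.
H2-Eb1: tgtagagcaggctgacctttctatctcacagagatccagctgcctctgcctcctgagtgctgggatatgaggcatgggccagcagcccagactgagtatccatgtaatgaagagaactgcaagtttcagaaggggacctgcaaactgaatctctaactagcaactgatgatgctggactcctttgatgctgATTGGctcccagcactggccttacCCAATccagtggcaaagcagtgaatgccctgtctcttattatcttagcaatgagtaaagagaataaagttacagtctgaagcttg

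Some genes that interferon-gamma induces were higher in R tumors, and some antiviral interferon genes were lower. The cytokine itself, Ifng, was scarce, with 26.6, 43.2 and 85.1 counts in R against 13, 19.8 and 38.8 in NR (1.21 ± 0.38, DESeq2 adjusted p = 0.0334, edgeR 0.143). Of 25 genes induced by interferon-gamma, 6 were higher in R and none lower, 23 had a positive difference and the median was 0.59. Line means were separated for 15 of the 25, against 2573 of 11843 genes with a mean of at least 100. Cxcl9 (chromosome 5, 92321347 to 92328079), the T cell attractant, counted 5655, 6570.3 and 10286 in R and 889, 2223 and 6334 in NR tumors. Only CC080 tumor 1 among NR tumors reached the R range. Its difference was 1.30 ± 0.43 (DESeq2 0.0441, edgeR 0.0958).

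Gbp2b, a guanylate-binding protein that attacks vacuoles of pathogens (chromosome 3, 142594847 to 142619179), counted 98.4, 145 and 1051 in R and 28.9, 33.7 and 216 in NR (2.64 ± 0.78, DESeq2 adjusted p = 0.0225). Within R, the CC002 tumors were far above the others, at 933 and 1051 against 98.4 to 152. Gbp5 of the same family gave 0.71 ± 0.23 (0.0449), Tgtp1, an interferon-inducible GTPase, 1.23 ± 0.34 (0.0142), Batf2, a transcription factor, 0.73 ± 0.23 (0.0319), and Calhm6, a channel protein, 1.33 ± 0.40 (0.0238). Reads of the guanylate-binding genes and of Tgtp1 can be shared with close relatives.

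Cxcl10, a chemokine that both kinds of interferon induce, did not pass, at 0.27 ± 0.21 (DESeq2 adjusted p = 0.502). Ubd, a ubiquitin-like modifier that interferon-gamma and TNF induce, was higher in R at 1.30 ± 0.30 (0.00175).

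These calls rested on few libraries. Over the fits that left out 1 tumor, the 25 genes gave 1 call (without CC079 tumor 2) to 12 calls (without CC080 tumor 1), 2 or 3 calls without any other tumor but CC075 tumor 2, and in the deep libraries none in DESeq2, with 2 at an unadjusted p under 0.05 and the median at 0.21. edgeR called none of the 25 over all 12 tumors, with 18 at an unadjusted p under 0.05. Cxcl9 lost its call without any single tumor other than CC036 tumor 1, CC075 tumor 2 and CC080 tumor 1 (1.12 to 1.70), Gbp2b without either tumor of CC002, CC036 or CC079 (2.11 to 3.52 over all 12 fits) and Ifng without any tumor other than CC002 tumor 2, CC075 tumor 2 and those of CC080 (1.02 to 1.51).

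Of 29 antiviral interferon-stimulated genes 6 were lower in R and none higher, 24 had a negative difference and the median was -0.17. Line means were below NR for 12 of the 29. Among all genes with a mean of at least 100 they were separated in either direction for 2573 of 11843. Ifit1, which binds viral RNA lacking cap methylation (chromosome 19, 34640871 to 34650009), counted 966, 1084 and 1465 in R and 1639.7, 1765 and 2187 in NR tumors. Every R tumor was below every NR tumor. Ifit1 was lower in R by a log2 difference of -0.63 ± 0.12 (DESeq2 adjusted p = 4.91e-05, edgeR 0.0346).

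Ifit3, a partner of Ifit1, counted 733, 1048 and 1633 in R and 1673, 1927 and 2286 in NR tumors, again without overlap (-0.77 ± 0.16, DESeq2 adjusted p = 0.000400). Rsad2, the radical enzyme viperin, also kept the tumors apart (-0.65 ± 0.13, 0.000478). Ifit3b (-0.83 ± 0.18, 0.000669), Isg15, a ubiquitin-like protein (-0.65 ± 0.14, 0.00126), and Cmpk2, a mitochondrial nucleotide kinase next to Rsad2 (-0.46 ± 0.12, 0.00903), completed the list. Ifit3 and Ifit3b are near-identical copies whose reads may be split between them. Ddx60, an RNA helicase outside the list that interferon induces, was lower in R too (-0.75 ± 0.14, DESeq2 3.40e-05, edgeR 0.0367).

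Each of the 6 passed without any single tumor, and the number of calls was 6 to 10 in those fits, 10 without CC001 tumor 2 or CC075 tumor 2. In the deep libraries Ifit1, Ifit3, Ifit3b and Isg15 passed, with differences of -0.73, -0.90, -0.86 and -0.81. edgeR called Ifit1 only, and the remaining 5 had edgeR adjusted p of 0.0655 to 0.0936.

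Promoters of the 2 interferon programs share elements. Genes driven by interferon-gamma often carry TTCNNNGAA (GAS), and interferon regulatory factors bind 2 copies of GAAA set 2 bases apart (ISRE), and both were searched on both strands. GAS was found in 8.30% and ISRE in 3.44% of all windows, and in 6.93% and 3.32% of the 13614 windows of genes with an adjusted p. The shares were 9.37% and 4.23% of the 331 windows of genes higher in R (252 of 343 genes). Of the 460 windows of genes lower in R (345 of 486) they were 7.17% and 5.0%. By gene, 9.55% of all 27025 genes with a window had a GAS and 3.99% an ISRE. Of the interferon-gamma list, 14 of 25 genes had a window, 12 with an ISRE and 6 with a GAS, and of the antiviral list 21 of 29 had one, 13 with an ISRE and 3 with a GAS. Shown are Gbp5 (chr3:142496684-142496983, plus strand) and Tgtp1 (chr11:48992197-48992496, minus strand), higher in R, and Ifit1 (chr19:34640639-34640938, plus strand) and Isg15 (chr4:156200769-156201068, minus strand), lower in R, with matches in capitals. In Gbp5 the capitals mark a GAS 245 and another 52 bases before the start site and an ISRE between them at 165, and in Tgtp1 a GAS at 88 and an ISRE at 77. In Ifit1 they mark an ISRE at 104 and at 85, and in Isg15 a run of 3 overlapping ISRE matches at 78, 72 and 66. The window of Cxcl9 held neither element in these letters.
Gbp5: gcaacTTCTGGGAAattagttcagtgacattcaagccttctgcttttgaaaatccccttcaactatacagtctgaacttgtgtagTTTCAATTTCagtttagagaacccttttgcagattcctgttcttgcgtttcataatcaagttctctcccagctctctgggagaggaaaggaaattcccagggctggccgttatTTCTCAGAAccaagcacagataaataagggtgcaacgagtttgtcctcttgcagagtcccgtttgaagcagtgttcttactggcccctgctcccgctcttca
Tgtp1: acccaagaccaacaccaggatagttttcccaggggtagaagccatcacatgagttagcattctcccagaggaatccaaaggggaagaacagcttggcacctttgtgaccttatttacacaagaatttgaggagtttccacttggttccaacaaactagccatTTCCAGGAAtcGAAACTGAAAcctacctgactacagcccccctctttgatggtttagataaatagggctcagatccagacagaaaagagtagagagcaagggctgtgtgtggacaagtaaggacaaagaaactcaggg
Ifit1: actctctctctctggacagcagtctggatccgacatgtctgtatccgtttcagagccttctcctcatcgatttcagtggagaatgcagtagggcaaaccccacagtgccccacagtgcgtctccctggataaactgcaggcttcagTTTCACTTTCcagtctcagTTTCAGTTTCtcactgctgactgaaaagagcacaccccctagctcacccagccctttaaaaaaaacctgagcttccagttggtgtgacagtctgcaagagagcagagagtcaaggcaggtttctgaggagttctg
Isg15: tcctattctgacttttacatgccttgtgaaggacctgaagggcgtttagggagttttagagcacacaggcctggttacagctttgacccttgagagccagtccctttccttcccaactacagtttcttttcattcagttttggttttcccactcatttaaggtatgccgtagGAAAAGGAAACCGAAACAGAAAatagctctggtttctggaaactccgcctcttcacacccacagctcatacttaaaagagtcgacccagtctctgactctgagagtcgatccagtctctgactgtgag

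**Figure D4:**
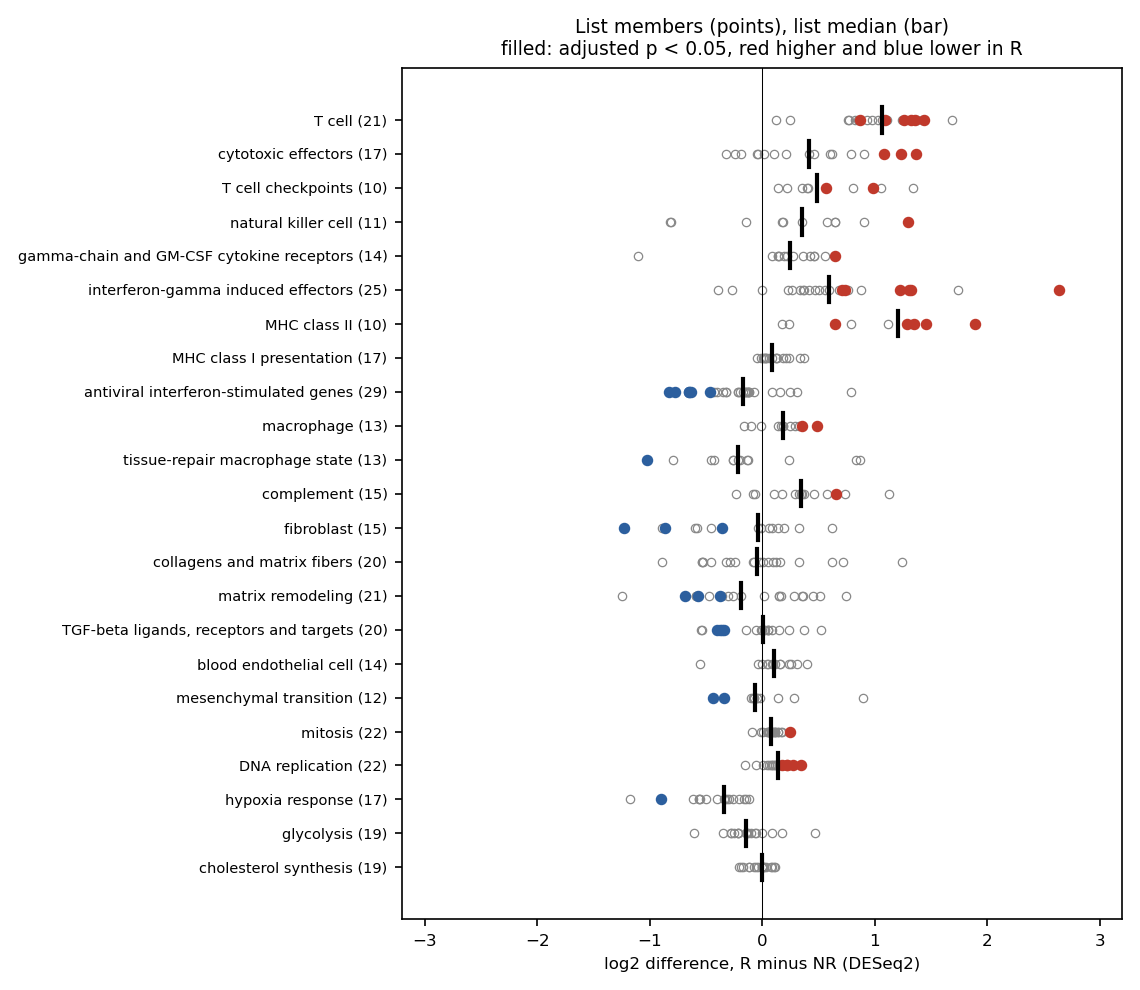
For gene lists of the text, each point is a member's log2 difference R minus NR and the bar is the list median, with called members filled in red above and blue below 0. The T cell, MHC class II and interferon-gamma effector lists have medians of 1.07, 1.20 and 0.59, and the antiviral list has a median of -0.17 with its 6 calls below 0.

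Cxcl13 had the largest difference of the chemokine list. It attracts B cells and follicular helper T cells and is also made by exhausted T cells and stromal cells. Cxcl13 (chromosome 5, 95956951 to 95961068) counted 15.5, 558 and 1632 in R and 3.19, 7.43 and 12.3 in NR tumors. All R tumors were above all NR tumors, yet the lines of R differed widely, with 474 and 642 in CC001, 1152 and 1632 in CC075 and 47.4 and 15.5 in CC002. Its log2 difference was 6.42 ± 0.90 (DESeq2 adjusted p = 3.22e-09, edgeR 0.0203). It was the only 1 of 12 monocyte and T cell chemokines that passed in DESeq2 over the 12 tumors, and a further gene of the list passed without CC001 tumor 1, CC001 tumor 2 or CC080 tumor 1.

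Of 12 B cell genes none passed in DESeq2 (7 had an adjusted p) or edgeR, with 2 and 6 at an unadjusted p under 0.05, and the list's median of 1.49 fell to 0.50 without CC002 tumor 1. That tumor had 346 counts of Glycam1, a ligand on lymph node vessels, where every other tumor had 0, and 209 of Ccl21a, the chemokine of lymph node stroma, where the others had at most 4.66. Igkc, the kappa light chain, was at 319 there against 13 to 31.1 in the other R tumors.

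Macrophage markers gave few calls. Adgre1, which encodes the macrophage marker F4/80, gave 0.19 ± 0.11 (DESeq2 adjusted p = 0.324) and Lyz2 0.18 ± 0.30 (0.784). Of 13 macrophage genes 2 were higher in R, among them Fcgr1, the high-affinity receptor for IgG (0.49 ± 0.14, 0.0201). Without CC001 tumor 2, CC075 tumor 1, CC079 tumor 1 or CC079 tumor 2 none of the 13 passed, without CC001 tumor 1, CC002 tumor 1 or CC036 tumor 1 it was 1, and without CC080 tumor 1 it was 4. Pla2g7, a secreted phospholipase of macrophages, counted 1120.4, 1702 and 1942 in R and 829, 894 and 1166 in NR tumors. Only CC080 tumor 1 exceeded the lowest R tumor. It was higher in R by 0.78 ± 0.13 (DESeq2 1.97e-06, edgeR 0.0236).

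A few genes known from tissue-resident macrophages were lower in R. Fcrls, a scavenger-type receptor best known from microglia (chromosome 3, 87250758 to 87263738), counted 1014, 1500.5 and 1949.9 in R and 2398, 2905 and 4909.6 in NR tumors. No R tumor reached an NR tumor. On the log2 scale Fcrls gave -1.10 ± 0.23 (DESeq2 adjusted p = 0.000516, edgeR 0.0285), and it was -1.02 in the deep libraries (DESeq2 0.000183). F13a1, the clotting factor subunit made by tissue macrophages, showed the same separation, with 864, 1175 and 1905 against 1984, 2416 and 3712 (-1.07 ± 0.25, DESeq2 0.00193, edgeR 0.0367, and -1.01 in the deep libraries with DESeq2 0.162). Folr2, a folate receptor of perivascular macrophages, was the 1 of 13 tissue-repair genes that passed (-1.02 ± 0.22, DESeq2 0.000858), and 10 of the 13 had a negative difference.

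Other myeloid and immune lists gave 1 or 2 calls each, where 5.53% of all genes with an adjusted p were called. Calls came in 1 of 9 genes for type 1 dendritic cells, 1 of 8 for neutrophils and 1 of 15 for complement. Plasma cells had 1 of 6 and type 2 dendritic cells 1 of 8 (Irf4 in both). TNF and NF-kB had 2 of 15 (Ltb and Icam1), neutrophil chemokines and interleukin-1 had 1 of 18, and plasmacytoid cells had 1 of 6. Only 3 of the neutrophil, 2 of the plasma cell and 3 of the plasmacytoid genes had an adjusted p. Cadm1, an adhesion molecule of type 1 dendritic cells that carcinoma cells and fibroblasts also express, counted 1039, 1226 and 1523 in R and 321, 740.5 and 972 in NR tumors, without overlap (0.90 ± 0.25, DESeq2 adjusted p = 0.0126), while Xcr1, which defines those cells, gave 0.77 ± 0.47 (0.358). Csf3r, the receptor for G-CSF (0.58 ± 0.19, 0.0487), Irf4, a factor of activated lymphocytes and plasma cells (1.22 ± 0.32, 0.00778), Cfp, the complement regulator properdin (0.65 ± 0.13, 0.000404), Ltb, lymphotoxin beta (1.12 ± 0.25, 0.00132), and Icam1, an adhesion ligand of leukocyte integrins (0.53 ± 0.17, 0.0340), were higher in R. Il33, an alarmin, was lower (-0.85 ± 0.26, 0.0309), and so was Tcf4 of the plasmacytoid list (-0.30 ± 0.08, 0.0131), a factor that fibroblasts also express. Of these 7 genes Ltb alone, with 87.6 to 139 counts in R against 25.3 to 85.0 in NR, kept all tumors of the classes apart.

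Csf3r lost its call without any tumor but CC080 tumor 1 (0.45 to 0.79 over the 12 fits), and Il33 without any tumor but CC075 tumor 2, CC079 tumor 1 and those of CC080 (-1.06 to -0.63). Icam1 kept it only without CC002 tumor 1, CC002 tumor 2, CC075 tumor 2 and the tumors of CC080, and Tcf4 lost it without CC001 tumor 1 or CC002 tumor 1.

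A few DNA replication genes were slightly higher in R tumors. Of 22 genes 5 were higher and none lower: Rrm2, the subunit of ribonucleotide reductase that limits nucleotide supply (0.34 ± 0.09, DESeq2 adjusted p = 0.00688), Fen1, the flap nuclease (0.27 ± 0.07, 0.00811), Chaf1a, a chromatin assembly factor (0.22 ± 0.07, 0.0217), and Mcm3 and Mcm7 of the replicative helicase (0.22 ± 0.05, 0.00288, and 0.17 ± 0.05, 0.0262). The median was 0.14, and line means were above NR for 10 of the 22. Among all genes with a mean of at least 100 they were separated in either direction for 2573 of 11843. Mcm7 separated all tumors, with 6360.5 to 6752 in R against 5181 to 6157 in NR. Foxm1, a driver of mitotic genes, was the 1 of 22 mitosis genes that passed (0.25 ± 0.07, 0.0125) and did not pass without CC002 tumor 1. Rad54l, a recombination repair ATPase, was called by edgeR too, with 879.7, 953 and 1041 in R against 674, 752 and 797 in NR and no overlap (0.35 ± 0.07, DESeq2 0.000323, edgeR 0.0493).

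Calls among the 22 numbered 3 without CC001 tumor 1, CC002 tumor 1, CC036 tumor 1 or CC075 tumor 1 and 7 without CC080 tumor 2. In the deep libraries Mcm3 alone passed, with a median of 0.21.

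Several matrix genes were lower in R tumors. Has2, which makes hyaluronan (chromosome 15, 56665627 to 56694539), counted 191, 248 and 378 in R and 411, 578 and 893 in NR tumors. The classes did not overlap. The difference was -1.20 ± 0.20 (DESeq2 adjusted p = 1.42e-06, edgeR 0.0286, and -1.11 in the deep libraries with DESeq2 0.0297). Mmp2, the gelatinase that degrades basement membrane, was apart by a small margin, with 3246, 3671 and 5405 against 5450.3, 6076 and 7190.5 (-0.68 ± 0.11, DESeq2 1.42e-06, edgeR 0.0236), and did not pass in the deep libraries (-0.59, DESeq2 0.0555). CC075 tumor 2 was the highest R tumor for both genes.

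Further genes of this kind by the naming rule were Itga7, the laminin receptor of muscle and Schwann cells (-1.52 ± 0.33, DESeq2 adjusted p = 0.00106, edgeR 0.0429), Lama2, a laminin chain (-1.30 ± 0.26, 0.000296 in DESeq2), Mfap4, a microfibril protein (-1.23 ± 0.29, 0.00310), Lrrc17, a secreted leucine-rich protein (-1.18 ± 0.27, 0.00220), and Apod, an apolipoprotein of fibroblasts and glia (-1.14 ± 0.32, 0.0155). All 5 had overlapping tumors, and CC075 tumor 2 was the highest R tumor in each. Apod lost its call without CC001 tumor 1, CC002 tumor 1 or CC079 tumor 2 (-1.50 to -0.97 over the 12 fits). Olfml2b, a matrix protein, was also called by edgeR (-0.73 ± 0.14, edgeR adjusted p = 0.0367).

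Of 15 fibroblast genes 3 were lower in R (Mfap4, Dpt and Dcn) and none higher, but the signs were mixed, with 6 positive, and the median was -0.04. Dcn, the proteoglycan decorin, counted 17136, 21187 and 25610.0 against 24058, 26679 and 29270.0 (-0.35 ± 0.09, DESeq2 adjusted p = 0.00860). Of 20 collagen and fiber genes none passed in DESeq2 or edgeR, with 7 and 9 at an unadjusted p under 0.05 and Col1a1 at 0.33 ± 0.27 (0.521). Of 21 matrix remodeling genes 3 were lower, among them Mmp2 and Mmp11, a protease of stromal cells (-0.57 ± 0.12, 0.000959). Of 20 TGF-beta genes 4 were lower, among them Inhba, an activin subunit (-0.36 ± 0.10, 0.0106), Bmp1, a procollagen protease (-0.40 ± 0.12, 0.0321), and Tgfbr3, a co-receptor (-0.34 ± 0.11, 0.0378), around a median of 0.01.

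CC075 tumor 2 bore on all of these lists. Without it, 7 fibroblast, 7 collagen and 6 matrix remodeling genes were lower in R and 5 TGF-beta genes, while without CC001 tumor 1 the TGF-beta list had 1 call, and 2 without any one of 8 more tumors (CC001 tumor 2, both of CC002, both of CC036, CC075 tumor 1 and both of CC079). The fibroblast list took 0.582% of counts in CC075 tumor 2 against 0.202 to 0.313% in the other R tumors, and the part of that in the results above was not tested. Fibroblast calls were 2 without CC002 tumor 1, CC036 tumor 2 or CC075 tumor 1.

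Tagln, a contractile protein of smooth muscle and pericytes, went the other way and was higher in every R tumor than in any NR tumor, with 118, 142 and 157 against 58.3, 84.6 and 111 (0.76 ± 0.17, DESeq2 adjusted p = 0.00106, and 0.92 in the deep libraries with DESeq2 0.00312). It was the 1 of 9 genes of its list that passed. Itga8, the integrin chain of mesenchymal and smooth muscle cells (chromosome 2, 12106632 to 12301922), was also without overlap, with 127, 153 and 230.2 in R against 27.6, 47.3 and 106 in NR (1.40 ± 0.28, DESeq2 0.000269, edgeR 0.0655, and 1.19 in the deep libraries with DESeq2 0.0416). Blood endothelial genes gave no call among 14 in DESeq2 or edgeR, with 1 at an unadjusted p under 0.05 in each, and lymphatic ones none among 6, with 0.

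The largest negative difference by the naming rule was that of Cpa4, a secreted carboxypeptidase. Cpa4 (chromosome 6, 30568369 to 30592418) counted 60.1, 67.2 and 92.8 in R and 149, 329 and 560.2 in NR tumors. The R tumors were close to each other, and the lowest NR tumor, CC080 tumor 1, was above all of them. On the log2 scale the difference was -2.27 ± 0.25 (DESeq2 adjusted p = 3.95e-16, edgeR 0.00216), and it was -1.86 in the deep libraries (DESeq2 2.95e-07).

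H19, the imprinted long RNA beside Igf2 (chromosome 7, 142575529 to 142578143), counted 562, 1619.9 and 2824 in R against 3745, 6417 and 8312 in NR. There was no overlap. The difference was -1.90 ± 0.41 (DESeq2 adjusted p = 0.000852, edgeR 0.0367), and -1.83 without a call in the deep libraries (DESeq2 0.184). Igf2, the growth factor, gave -0.86 ± 0.27 (DESeq2 0.0355) with overlap. H19 and Igf2 were the only 2 calls among 16 imprinted genes in DESeq2, of which 10 had an adjusted p. The call of Igf2 was lost without any tumor other than CC075 tumor 2, CC079 tumor 2 and those of CC080 (-1.0 to -0.62).

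Prl2c2, a placental hormone of the prolactin family known as proliferin, was higher in R at 239.6 (67.1 to 334) against 48.2 (22.3 to 94.9) median counts (2.17 ± 0.36, DESeq2 adjusted p = 1.55e-06, edgeR 0.0346). CC075 tumor 2 was the only R tumor within the NR range, at 67.1 with the next at 211. It did not pass in the deep libraries (1.88, DESeq2 0.171). Its reads can be shared with near-identical copies of the gene.

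Of the 22 genes that edgeR called lower in R, several are best known from neurons or cell adhesion, for which no list had been drawn up. Adgrl3, an adhesion receptor that pairs neurons across the synapse (chromosome 5, 81020138 to 81825133), counted 797, 1029 and 1219 in R and 1501, 1739 and 1957 in NR tumors. The classes did not overlap, and the difference was -0.77 ± 0.10 (DESeq2 adjusted p = 3.45e-11, edgeR 0.00248, and -0.71 in the deep libraries with DESeq2 0.000641).

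Csmd3, a large membrane protein, counted 235, 340.2 and 415 against 546, 608 and 670.0 (-0.88 ± 0.12, DESeq2 adjusted p = 3.22e-09, edgeR 0.0115). Zbtb20, a transcriptional repressor, counted 3875, 4350.3 and 4647 against 5246, 5619.5 and 5716 (-0.37 ± 0.06, DESeq2 1.49e-07, edgeR 0.0156). Adgrl3, Csmd3 and Zbtb20 were the 3 genes that limma called with line as a random effect, each without overlap between the classes.

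Epha7, an ephrin receptor (-0.70 ± 0.12, edgeR adjusted p = 0.0289), Pcdh7, a protocadherin (-0.68 ± 0.11, 0.0156), and Cacna2d1, a calcium channel subunit (-0.36 ± 0.07, 0.0346), also kept all 12 tumors apart by class. Metabolic genes with the same behaviour were Gbe1, the glycogen branching enzyme (-0.69 ± 0.13, edgeR adjusted p = 0.0367), Galk1, galactokinase (-0.38 ± 0.07, 0.0338), and Lpin3, a phosphatidate phosphatase (-0.83 ± 0.15, 0.0367). Cdh19, a cadherin of Schwann cells, was low in level but apart too, at 11.6 to 16.6 in R and 23.5 to 58.7 in NR (-1.41 ± 0.34, DESeq2 0.00351). It was the 1 call among 6 Schwann cell genes, of which 3 had an adjusted p.

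Afap1l2, an adaptor of Src kinases, was the last of the 8 genes that edgeR called higher in R besides Cxcl13, Prl2c2, H2-Eb1, Itgb2, Pla2g7, Rad54l and Serpina3g, with 781, 1137 and 1215 in R against 417, 569.7 and 844 in NR (0.85 ± 0.15, edgeR adjusted p = 0.0338). The classes overlapped through CC075 tumor 2 and CC080 tumor 1. The 27 named genes that edgeR called all passed DESeq2 without any single tumor and with depth class as a term, 21 kept the tumors apart, and 14 passed in the deep libraries.

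The remaining rule-named genes were Dnase1l3, a nuclease secreted by dendritic cells and macrophages (1.58 ± 0.47, DESeq2 adjusted p = 0.0225), Cyp2d22, a cytochrome P450 (-1.45 ± 0.29, 0.000296), and St18, a zinc-finger factor (-1.09 ± 0.33, 0.0266). Their tumors overlapped. Dnase1l3 lost its call without CC001 tumor 1, CC036 tumor 1, CC036 tumor 2, CC075 tumor 1 or CC079 tumor 2 (1.39 to 2.17 over the 12 fits), and St18 kept its call only without CC002 tumor 1, CC036 tumor 2, CC075 tumor 2 and the tumors of CC080 (-1.23 to -0.77).

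All 17 hypoxia genes had a negative difference, with a median of -0.34. Line means were separated for only 3 of the 17, against 2573 of 11843 genes with a mean of at least 100. The median was -0.18 without CC036 tumor 2 and -0.08 without the line CC036. The list was highest in CC036, with a median deviation of the line mean from that of all lines of 0.63 on the log2 scale, while CC080 at -0.17 lay within the R lines (-0.19 to -0.11). Of the 17, Adm, the vasodilator adrenomedullin, alone passed, at 17.4, 54.1 and 68.9 in R against 75.1, 102 and 118 in NR without overlap (-0.90 ± 0.24, DESeq2 adjusted p = 0.00789). Vegfa, the vessel growth factor, gave -0.31 ± 0.20 (0.377), and the list had 6 calls without CC080 tumor 2, 3 without CC002 tumor 2, and 2 without CC075 tumor 2 or CC079 tumor 2. Of 19 glycolysis, 13 mitochondrially encoded, 19 cholesterol, 18 unfolded protein and 15 p53 genes none passed in DESeq2 or edgeR, with 3, 0, 0, 4 and 4 at an unadjusted p under 0.05 in each test, and of 35 complex I genes Ndufv3 alone did (-0.33 ± 0.10, 0.0180). None of 13 epithelial genes passed in either test or had an unadjusted p under 0.05 in it (4 passed without CC080 tumor 1). Of the 13, 9 had an adjusted p in DESeq2. Epcam counted 12.0, 17.9 and 45.6 in R against 3.58, 9.26 and 38.3 in NR (0.77 ± 0.56, DESeq2 0.458).

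Regulators that carcinoma cells share with fibroblasts gave a few calls. Snai1 and Zeb1, repressors of epithelial genes, were lower in R (-0.44 ± 0.14, DESeq2 adjusted p = 0.0429, and -0.34 ± 0.10, 0.0153), the 2 calls among 12 mesenchymal genes. Egr1, an immediate early factor, was lower without overlap (-0.57 ± 0.14, 0.00472), the 1 call among 14 genes of its list. Of the signaling lists, Spry1, a feedback inhibitor of growth factor signaling (-0.58 ± 0.16, 0.0125), Dkk2, a Wnt antagonist (-0.50 ± 0.15, 0.0198), and Gstm1, a glutathione transferase (-0.58 ± 0.16, 0.0136), were lower and Wnt7b, a Wnt ligand, higher (0.48 ± 0.15, 0.0313). These were 1 call among 18 MAPK feedback genes, 2 among 16 Wnt genes and 1 among 12 NRF2 targets, of which 14, 12 and 11 had an adjusted p. Over all genes with an adjusted p 5.53% were called, and none of 11 genes of a YAP and regenerative epithelium list passed. Snai1 passed only without CC075 tumor 2 or CC080 tumor 1, Wnt7b only without CC036 tumor 2, CC075 tumor 2 or a tumor of CC080, Dkk2 was lost without CC001 tumor 2, CC075 tumor 1 or a tumor of CC002 or CC079, Zeb1 without CC001 tumor 1, CC002 tumor 1 or a tumor of CC079, Spry1 without CC036 tumor 1 and Gstm1 without CC075 tumor 1.

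Over all lists, 43 of the 665 distinct members with an adjusted p were higher and 29 lower in R, against 2.29% and 3.24% of all genes, and edgeR called 5 of them over the same tumors. The lists were chosen with earlier results of these data known, so these shares do not test the lists. Among host lines, the list medians of single tumors, taken as deviations from the mean of the 6 line means on the log2 scale, ordered the lines differently from list to list. For the T cell list CC079 was lowest, at -1.40 and -1.07, and CC001 and CC075 lay at 0.64 to 0.90. CC080 was split, at 0.53 in tumor 1 and -0.91 in tumor 2, and so was CC036, at 0.13 and -0.73. For MHC class II CC001 was highest, at 1.02 and 1.10, and CC002 tumor 2 lowest within R, at -0.04. For interferon-gamma effectors CC001 was again highest, at 0.39 and 0.87, and CC036 tumor 2 (0.20) and CC080 tumor 1 (0.32) lay within the R range. For antiviral genes CC036 tumor 2 was highest at 0.42, with CC002 and CC075 tumor 1 lowest at -0.32 to -0.27.

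**Figure D5:**
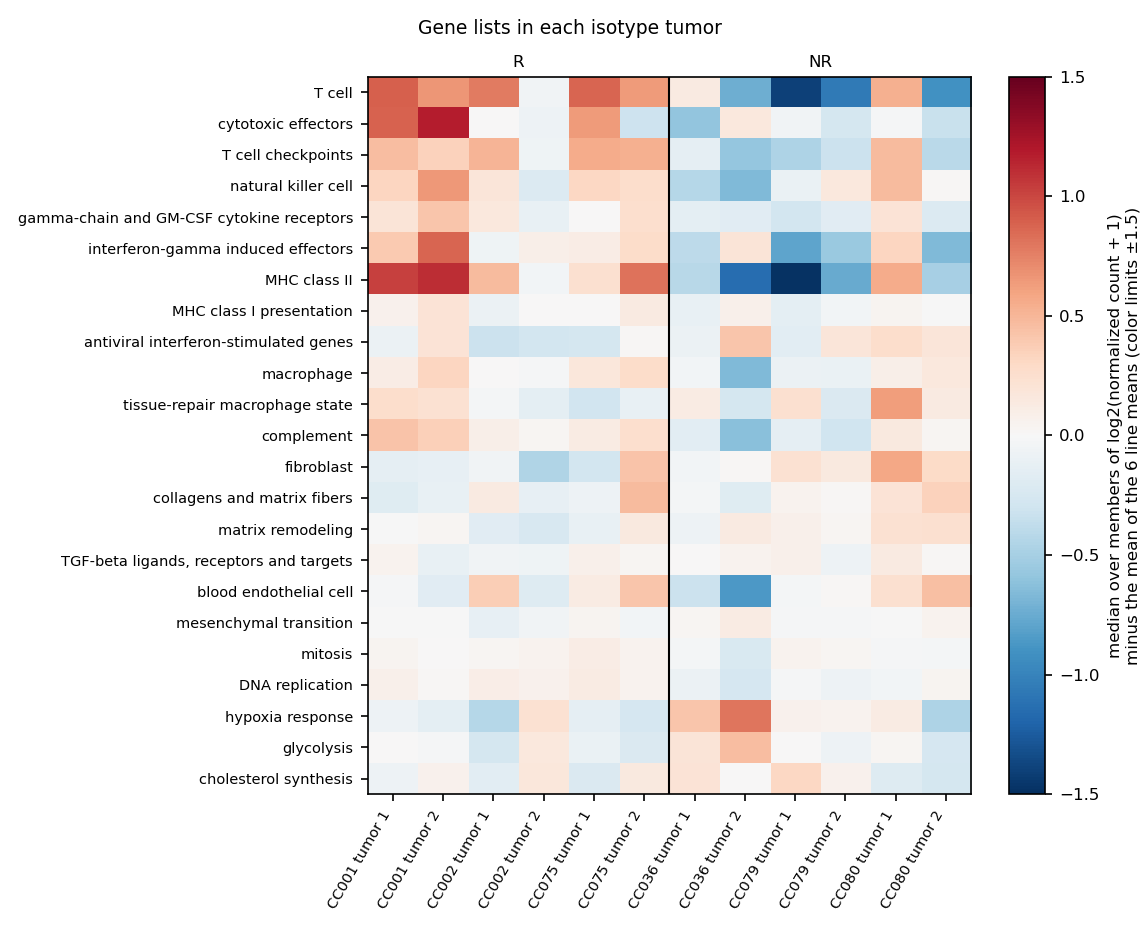
Heat map with gene lists as rows and the 12 tumors as columns, coloured by the list's median deviation from the mean of the 6 line means on the log2 scale, red above and blue below 0. The tumors of CC079 lie lowest for the T cell list, at -1.40 and -1.07, and CC080 tumor 1 lies at 0.53 against -0.91 for CC080 tumor 2.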

How the data were processed

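RNA of 12 isotype-treated MC38 tumors was sequenced as poly(A)-selected libraries, 2 tumors for each of 6 host lines. The authors aligned reads with Bowtie 1.2.3 to transcriptomes of the Collaborative Cross founder strains (GENCODE vM23, GRCm38) and assigned them to genes with gbrs, and the deposited values are expected counts, estimated per gene and not scaled for depth. Reads that fit several genes or haplotypes were divided among them. Of these values 16.9% were not whole, and rounding moved a library total by 66.6 counts at most. Library totals ran from 15276128 to 65776443 counts, so low counts were less precise in the 4 shallow libraries. Names and coordinates came from GENCODE vM21 on the same build, which matched 26681 of 26869 identifiers, and 188 genes without a match stayed in the fits. Whether the counting used strand is not given in the sources used here, so antisense and overlapping genes cannot be told apart.

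The labels gave each tumor's host line and antibody, and the text of the study gave the class of each line. Classes were compared by the Wald test of DESeq2 (version 1.42.0, R 4.3.3; class as the only term, at least 5 counts summed over tumors, Benjamini-Hochberg adjusted p under 0.05 over all genes), after the study's stated method. Normalized counts are counts divided by the size factors of DESeq2, and log2 differences are R minus NR and not shrunken. The tumors are biological replicates per the labels. The 2 tumors of a line were not repeats of 1 library (chi-square per degree of freedom of their counts 13.5 to 123 over 6 pairs). Their deviations from the class mean correlated with a median r of 0.21 (0.0532 to 0.381), against -0.30 for tumors of different lines of a class. Subtracting a class mean that includes these tumors lowers such correlations, so -0.30 is not a neutral baseline. The within-line correlation fitted by limma was 0.062. Treating the 2 tumors of a line as independent can make p-values too small. Library properties were compared by two-sided exact permutation in Python 3.11.15 with scipy 1.17.1, pandas 2.3.3 and numpy 2.4.6. The main DESeq2 fit, edgeR, limma and the fit on line sums were run on simulated counts without a line effect. The other fits were not.

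Genes were named by a rule: the 12 largest positive and 12 largest negative differences among calls with a mean of at least 100 normalized counts and separated line means, edgeR calls at that level, and of each list the called members with the 4 largest differences or, with fewer than 2 calls, up to 2 abundant members. Symbols of unnamed gene models and pseudogenes were left out, and some genes that met the rule are not reported here. The 56 gene lists held 785 entries, of which 779 were in the matrix. The members and lists were chosen with earlier results of these data known.

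Alternatives were edgeR 4.0.16, limma 3.58.1 with line as a random effect, counts summed per line, TMM scaling, other count filters, independent filtering off, all 23 tumors in the fit, depth class as a term (libraries under or over 30000000 counts), deep libraries only, the replicate number as a block, and each tumor and line left out. The edgeR fits by depth and without single tumors were chosen after seeing the data. Promoter windows and motif counts used RefSeq sequences of GRCm38.p6.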

Additional observations from a re-analysis of the deposited data

Results flagged for a closer look

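In each class of 6 tumors the highest or lowest value was compared with the rest by its gap relative to the range (Dixon's test, on the log2(normalized count + 1) scale for genes). Of 400 such groups, over named genes, list genes and library properties, 42 had a value set apart, where chance alone sets apart about 1 group in 20. The values are normalized counts unless a share is named, and no cause was tested.

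CC075 tumor 2 accounted for 11 of the 42. Within R it was lowest for Prl2c2 at 67.1 (others 211 to 334), Afap1l2 at 781 (others 1067 to 1215), Ikzf2 at 738, Spp1 at 4157 (others 7748 to 9792) and Wnt7b at 1129.5. It was highest for Lama2 at 144 (others 51.9 to 74.8), Il33 at 219, Bmp1 at 3447, Zeb1 at 6308 and Gstm1 at 217, and its fibroblast list took 0.582% of counts.

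CC036 tumor 2 accounted for 9. Within NR it was highest for St18 at 975 (others 321 to 486), Tgfbr3 at 4421 and Junb at 4980.4. It was lowest for C1qa at 5426 (others 8815 to 10504), Rgs5 at 1159 and Mki67 at 15522. Its macrophage list took 0.183% of counts (others 0.295 to 0.352%) and its pericyte list 0.0146%, both lowest, and its tissue-repair macrophage list took 0.327%, the highest.

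CC002 tumor 1 accounted for 7. It had 319 counts of Igkc, 209 of Ccl21a and 346 of Glycam1, and its B cell list took 0.0110% and its lymph node list 0.00225% of counts, all highest within R. It was lowest for Relb at 961 and Junb at 2321.

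CC080 tumor 1 accounted for 4 and CC080 tumor 2 for 3. Tumor 1 was highest within NR for Gbp2b at 216 (others 28.9 to 55.5), Calhm6 at 119 and Nkg7 at 259 and lowest for Epha7 at 2992. Tumor 2 was highest for Tnnt3, a skeletal muscle gene, at 640.5 (others 14.4 to 51.1), Chaf1a at 1378 and the skeletal muscle share at 0.0276%.

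Of the remaining 8, CC001 tumor 1 was highest within R for the skeletal muscle share at 0.0330% and the erythroid share at 0.0122%. CC001 tumor 2 was highest for Isg15 at 681 and lowest for Adm at 17.4 and for genes with a count at 19360. CC075 tumor 1 was highest for Chaf1a at 1471, CC002 tumor 2 was lowest for Trac at 111, and CC079 tumor 1 was highest within NR for Ccl21a at 4.66.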

How the results depend on the processing

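The 829 calls of DESeq2 became 30 with edgeR, 3 with limma, 315 with counts summed per line, 503 with depth class as a term, 44 in the deep libraries, and 225, 295, 366, 1299, 197 and 1588 without line CC001, CC002, CC036, CC075, CC079 and CC080. Leaving out 1 tumor gave 402 to 1838. Fits with TMM scaling, other filters, independent filtering off or all 23 tumors gave 634 to 829. The 30 calls of edgeR became 0 in the deep libraries (2058 genes at an unadjusted p under 0.05, against 44 calls of DESeq2), 2 with depth class as a term and 2 to 743 without 1 tumor (743 without CC075 tumor 2, 477 without CC080 tumor 1). The count of list members called, 72, became 5 with edgeR, 0 with limma (3144 of all genes at an unadjusted p under 0.05), 35 with counts summed per line, 8 in the deep libraries, 30, 45, 47, 26 and 150 without line CC001, CC002, CC036, CC079 and CC080, and 45 to 131 without 1 tumor. Genes with separated tumors, 175, became 730 in the deep libraries and 198 to 806 without 1 tumor, and genes with separated line means, 2573, 1493 to 3335 without 1 tumor. With fewer tumors separation is met more easily, and the cause of the other moves was not tested. No library property passed in any setting, but in none could a single property have passed, even with the classes fully apart. No named gene that DESeq2 called reversed, and of 95 such genes 71 stayed called with depth class as a term, 21 in the deep libraries and 69 to 95 without 1 tumor. Deviations of R and NR tumors with the same replicate number had a median correlation of 0.0071 (-0.171 to 0.215 over 18 pairs). With different numbers the median was -0.026 (-0.195 to 0.266 over 18 pairs). Whether tumors of the same number were handled together was not tested. The replicate block gave 1005 calls, with 96 list members. Low counts in the 4 shallow libraries limit the genes under about 100 normalized counts most.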

Other observations

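The genes here lie outside the lists or the naming rule and were chosen after their values were seen. Both subunits of the receptor for interleukin-18, a cytokine that makes T cells and natural killer cells release interferon-gamma, were higher in R. Il18rap counted 604 to 953 in R against 257 to 597 in NR, with no overlap (0.91 ± 0.18, DESeq2 adjusted p = 0.000147, edgeR 0.0516). Il18r1 gave 1.20 ± 0.35 (DESeq2 0.0197) and lost its call without CC001 tumor 1, CC075 tumor 1 or a tumor of CC079. Of 8 tested Gimap genes, GTPases of lymphocyte survival, 4 were higher in R and none lower (0.74 to 1.10), although all 4 were lost without CC002 tumor 1 and Gimap1, Gimap5 and Gimap8 without any one of 8, 8 and 9 tumors, among them CC001 tumor 1, CC075 tumor 1 and those of CC036 and CC079. Of 30 integrin genes, 27 of them with an adjusted p, 5 were higher, among them Itgal (0.84 ± 0.16, DESeq2 0.000220), Itgb7 and Itga4 of leukocytes (Itga4 lost its call without CC002 tumor 1), and Itga7 was lower. The integrin signs were mixed, with 16 positive and 14 negative, and the median of those with an adjusted p was 0.01. Over all genes with an adjusted p 2.29% were called higher and 3.24% lower.

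The 12 tested Bmp genes include ligands of the TGF-beta family and the procollagen protease Bmp1. Of the 12, 6 had an adjusted p and 3 were lower in R, the ligands Bmp5 and Bmp3 and the protease Bmp1. Bmp3 lost its call without either tumor of CC001, CC002 or CC079. Bmp5 counted 24.3 to 56.1 in R against 72.6 to 334 in NR, without overlap (-2.09 ± 0.36, DESeq2 adjusted p = 8.76e-06, edgeR 0.0367). Hgf, the ligand of the Met receptor, counted 342 to 702 against 728 to 929 (-0.70 ± 0.15, DESeq2 0.000516), and Igf1 109 to 195 against 199 to 266 (-0.66 ± 0.17, DESeq2 0.00778). Of 68 protocadherin genes, 48 of them with an adjusted p, 7 were lower and none higher, where 3.24% of all genes were called lower. Of the 7, 5 were in the Pcdhb cluster, whose near-identical members can share reads.

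A few loci were high in 1 or 2 lines and did not follow the class. H2-Ea-ps, a class II gene next to H2-Eb1 that is a pseudogene in C57BL/6, was at 0 in every R tumor and in both tumors of CC036, at 299 and 488 in CC079 and at 3174 and 1138 in CC080. Gm9800, a processed pseudogene, was at 2743 to 5583 in CC036 and CC079 and at most 34.8 elsewhere. Ly6i was at 905 and 745 in CC001 and at most 52.6 elsewhere, and it lost its call without either of the former. In each case DESeq2 called the gene between classes while line means overlapped, and 19 called genes had line means at least 2 apart on the log2 scale within a class, against a median spread of 0.27 in R and 0.30 in NR over all called genes.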
